A study of Mus musculus with 144 samples.

Results

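Lipoproteins carry triglyceride and cholesterol through the blood, and the hepatocyte makes most of their protein components. The genes described here encode these components and the factor that loads lipid onto them: *Apoa1*, *Apoa2*, *Apoa4*, *Apoa5*, *Apob*, *Apoc1*, *Apoc2*, *Apoc3*, *Apoe* and *Mttp*. They were taken by name, 10 of the 55359 genes counted, and their level was followed in all libraries by genotype label, treatment and hour. RNA-Seq libraries came from primary hepatocytes of male mice 28 days of age, isolated by collagenase perfusion, attached to collagen and cultured with dexamethasone and, after attachment, without serum. The WT label stands for strain C57BL/6NCrl, and the PkmΔDRE label for mice homozygous for a CRISPR deletion of a dioxin response element (DRE) in an intron of *Pkm* and backcrossed to C57BL/6N. Cells under each label received the dioxin TCDD at 10 nM, which activates the aryl hydrocarbon receptor (AHR), or DMSO vehicle (0 nM), and were harvested within the first day (2, 4, 8 and 12 h) or on later days (24, 48, 72, 96 and 120 h). Each of the 36 groups held 4 libraries, and the labels give neither an animal nor an isolation for any of them, so p-values measure the spread between libraries, which may be technical, and genotype and isolation cannot be told apart.

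In the liver, APOB is the single large protein that stays with a very low density lipoprotein particle from assembly to uptake, and microsomal triglyceride transfer protein, the product of *Mttp*, adds lipid to it in the endoplasmic reticulum. APOA1 and APOA2 are the main proteins of high density lipoprotein. APOC1, APOC2 and APOC3 exchange between particles and adjust lipoprotein lipase, which APOC2 activates and APOC3 inhibits, APOA5 lowers plasma triglyceride, APOA4 is made in liver and intestine during lipid secretion, and APOE is a ligand for receptors that clear remnants. APOE is also made by macrophages.

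The genes lie in a few places of the genome (coordinates of GENCODE M21, build GRCm38). *Apoa1* (chr9:46228580-46230466, plus strand), *Apoc3* (chr9:46232933-46235636, minus), *Apoa4* (chr9:46240696-46243459, plus) and *Apoa5* (chr9:46268633-46271919, plus) form 1 cluster. *Apoc2* (chr7:19671579-19677941), *Apoc1* (chr7:19689481-19692660) and *Apoe* (chr7:19696109-19699188) form another on the minus strand. *Apoa2* (chr1:171225054-171226379, plus), *Apob* (chr12:7977648-8016835, plus) and *Mttp* (chr3:138089854-138144968, minus) stand alone. The longest annotated transcript of *Apob* has 13934 bases and that of *Mttp* 3963, while those of the other genes have 518 to 2515 bases. GC content was 43.5% for *Apob* and 45.9% for *Mttp* and 51.9% to 59.5% for the others.

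The bases just upstream of 4 of the genes are shown, since most of what follows concerns them: *Apoa1*, *Apoa4* and *Apoa5*, neighbours whose counts fell under TCDD at 8 h under the WT label, and *Apob*, whose counts rose there. The sequences are from RefSeq, build GRCm38.p6, plus strand, 5′ to 3′, and hold the part of the window of 250 bases before the start that lies outside the gene's own annotated exons.
*Apoa1*, chr9:46228380-46228579: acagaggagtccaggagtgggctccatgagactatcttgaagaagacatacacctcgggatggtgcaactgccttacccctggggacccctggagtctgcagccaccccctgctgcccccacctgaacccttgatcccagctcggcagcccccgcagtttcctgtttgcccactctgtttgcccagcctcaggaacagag
*Apoa4*, chr9:46240594-46240695: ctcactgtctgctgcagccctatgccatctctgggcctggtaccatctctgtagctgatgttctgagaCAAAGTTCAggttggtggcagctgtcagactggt
*Apoa5*, chr9:46268383-46268632: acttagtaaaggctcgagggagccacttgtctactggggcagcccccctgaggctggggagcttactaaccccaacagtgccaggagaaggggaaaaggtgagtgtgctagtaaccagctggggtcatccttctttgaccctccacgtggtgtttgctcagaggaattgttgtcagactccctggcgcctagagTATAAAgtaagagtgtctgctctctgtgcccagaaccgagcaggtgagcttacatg
*Apob*, chr12:7977427-7977647: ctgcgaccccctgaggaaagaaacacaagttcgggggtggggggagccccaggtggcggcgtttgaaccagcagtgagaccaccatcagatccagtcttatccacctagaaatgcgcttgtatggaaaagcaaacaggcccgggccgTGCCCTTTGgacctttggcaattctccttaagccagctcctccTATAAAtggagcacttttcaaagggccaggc
Capitals mark 3 searched motifs, on either strand and without overlap: the core of the DRE (GCGTG), a direct-repeat element of the kind that HNF4A binds (CAAAGNNCA) and the TATA box (TATAAA). The DRE core was in none of these 4 stretches, the direct-repeat element was in those of *Apoa4* and *Apob*, and the TATA box was in those of *Apoa5* and *Apob*. Of 32851 mouse promoter windows of 250 bases, 28.2% held the DRE core, 5.49% the direct-repeat element and 12.4% the TATA box. Among the 10 genes, *Mttp* was the one whose window held the DRE core, and that window lies in its own annotated exon and is not shown. RefSeq windows were at hand for 8 of the 10 genes, all but *Apoc1* and *Apoc3*. A match describes the letters of a window and is no evidence of binding.

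Several libraries went against their labels. The targeted *Pkm* was compared first: its exon counts do not cover the deleted intronic bases, and its level in TCDD was the higher one under the PkmΔDRE label, where the element is said to be missing. Under the PkmΔDRE label *Pkm* averaged 161 ± 96.6 CPM (counts scaled to the library's TMM-adjusted total, mean ± SD, n = 4 throughout) in vehicle and 429 ± 101.002 in TCDD at 24 h, against 87.6 ± 72.9 and 82.97 ± 46.003 under the WT label. At 8 h the log2 fold change of *Pkm* was 1.24 ± 0.23, adjusted p = 0.13 under the PkmΔDRE label and -0.49 ± 0.25, adjusted p = 0.12 under the WT label. At 8 h neither change passed the test, and the difference between them did not either (adjusted p = 0.29). The levels at 24 h are given without a test. Whether the 2 genotype labels are exchanged was not tested. Every direction given below is therefore stated by the label WT or PkmΔDRE. *Cyp1a1*, the standard AHR target, went against the treatment label, next to the median of its group, in libraries 21 (WT label, vehicle, 48 h, 3285 CPM), 31 (WT label, vehicle, 96 h, 1717 CPM), 40 (WT label, TCDD, 2 h, 1.15 CPM), 44 (WT label, TCDD, 4 h, 10.2 CPM) and 64 (WT label, TCDD, 72 h, 29.2 CPM). Over 12234 other genes, replicate 4 of PkmΔDRE vehicle at 4 h was most like libraries of 96 h (r = 0.974, against 0.776 for its own hour), and replicate 4 of PkmΔDRE vehicle at 96 h was most like those of 4 h (r = 0.980, against 0.774). The pair, below called the 4 h library and the 96 h library out of place, was kept where the labels put it, and the results at those hours that rest on it are given with and without it. Libraries held 13588848 to 30719161 counted pairs (median 18011825).

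Hepatocyte identity was plain at 2 h. The 6 hepatocyte markers (*Alb*, *Ttr*, *Cps1*, *Tat*, *Serpina1c*, *Ass1*) summed to 112274 to 159103 CPM in vehicle under the WT label and to 145454 to 198986 under the PkmΔDRE label. By 120 h these sums were 2634 to 14739 and 6834 to 8595. At both times they stood above the summed markers of macrophages (172.1 to 285 and 18.4 to 110.04 CPM under the WT label), endothelial cells (273 to 457 and 35.5 to 89.1), stellate cells and fibroblasts (5.63 to 11.8 and 16.1 to 146) and cholangiocytes (55.7 to 140.8 and 581 to 1069). These are bulk cultures, in which fewer cells of a type and less RNA per cell cannot be told apart.

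How completely a gene was counted differed between members, because the deposited count leaves out pairs that fall on 2 overlapping genes. *Apoa4* shares 34.9% of its exon bases with *Gm47528* and 34.8% with *Gm10680*, both on the opposite strand, and the count used here held 82074 of the 1796068 pairs found on it when the strand columns were added up (4.57%). *Apoa5* kept 51% of its pairs, beside the antisense gene *Gm47544*, and *Mttp* kept 87.2%. *Apob*, *Apoa1*, *Apoa2*, *Apoc1*, *Apoc3* and *Apoe* kept over 99.9%. *Apoc2* shares 79.5% of its exon bases with *Gm44805* on its own strand, so pairs there are ambiguous in every column, and it held 1012 pairs over all libraries, with at most 27 in a library and none in 31 libraries. *Apoc2* values below say nothing about how much *Apoc2* these cells made, and *Apoa4* and *Apoa5* counts are uncertain in level.

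The genes spanned a wide range in freshly treated cells. Levels of different genes are compared per kilobase of transcript, from the sum of the strand columns, in vehicle under the WT label at 2 h. *Apoe* stood highest at 19826 ± 1631 CPM per kb, followed by *Apoa2* at 13049.8 ± 1473 and *Apoa1* at 10893 ± 2633, and the latter pair overlapped within their SDs. *Apoc1* (5894 ± 481) and *Apoc3* (3343 ± 552) came next and were clear of their neighbours. *Apoa4* (997 ± 329.9), *Apoa5* (264 ± 59.3), *Mttp* (113.7 ± 11.2) and *Apob* (47.9 ± 18.6) formed the lower end, each separated from the next by more than the summed SDs. The place of *Apoa4* rests on the summed columns. From the count used elsewhere it stood at 47.5 CPM per kb, below *Mttp* (106.7) and *Apob* (51.3), so its place is uncertain. At 120 h *Apoe* still led at 2035 ± 563 CPM per kb. *Apoa1* (635 ± 678), *Apoc1* (106.5 ± 71.6), *Apoa2* (101.6 ± 112.1), *Apoc3* (96.5 ± 116.9) and *Apob* (49.4 ± 12.02) could not be ordered, since their SDs overlapped. *Apob*, lowest of these at 2 h, was at a like level at both hours.

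**Figure D1:**
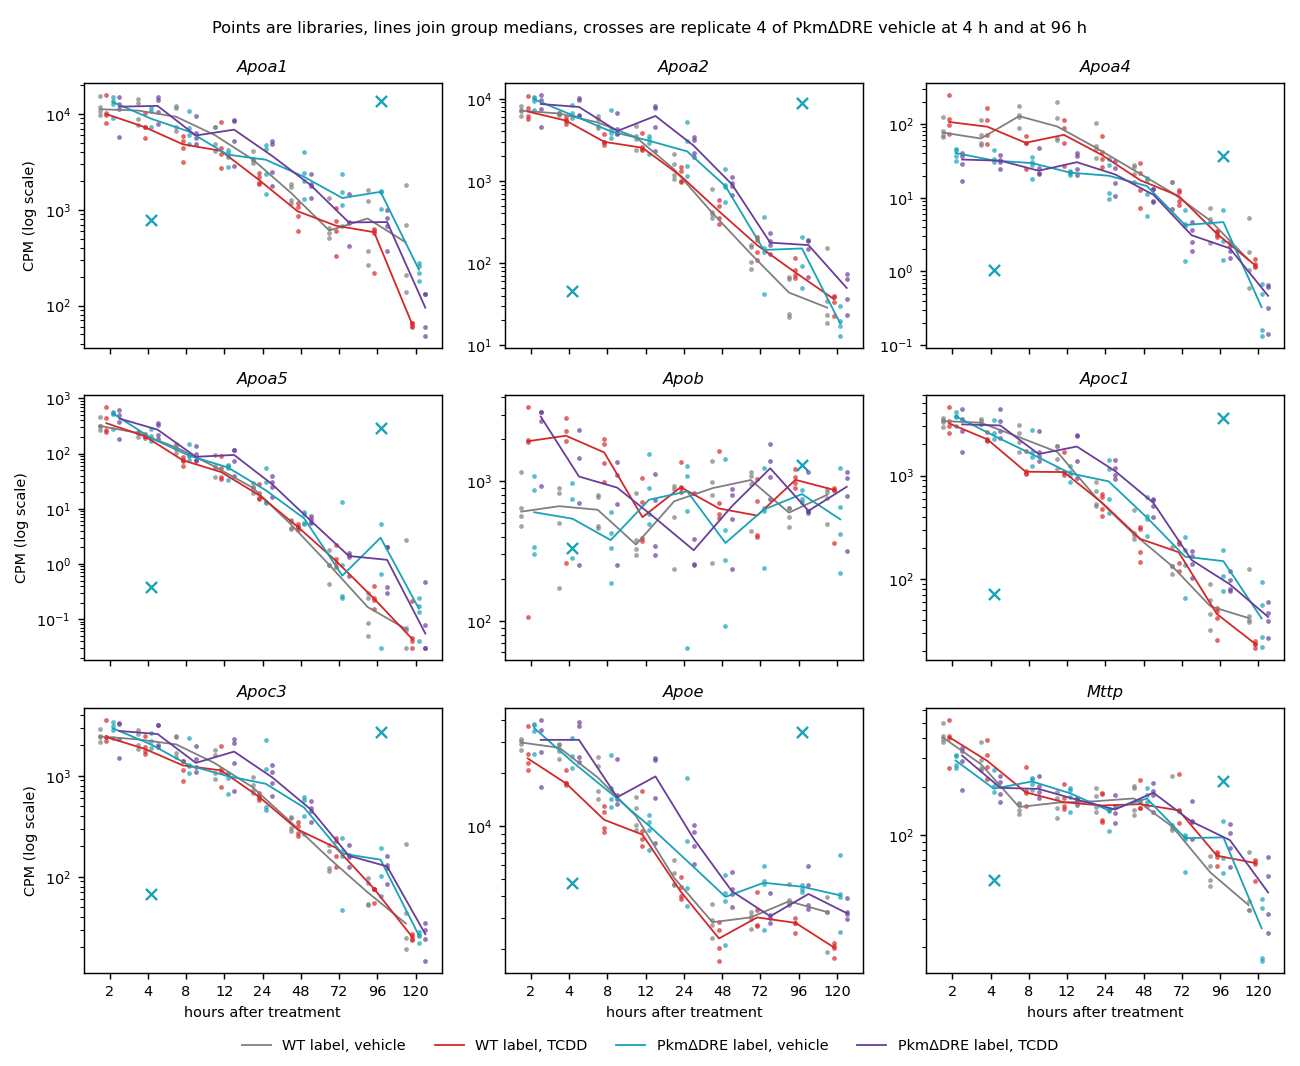
CPM of 9 genes (log scale) at the 9 harvest times, in 4 colours for the label and treatment; each point is 1 library, lines join group medians, values below 0.03 CPM are drawn at 0.03, and crosses are replicate 4 of PkmΔDRE vehicle at 4 h and at 96 h. All panels fall with time except that of *Apob*, and in those panels each cross lies near the levels of the other cross's hour.

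Time in culture was tested among the 36 vehicle libraries of each label. Under the WT label *Apoa1* fell from 11876 CPM at 2 h to 3462 at 24 h and 717 at 120 h, and *Apoa2* from 7164 to 1479 and 56.9. *Apoe* fell early, from 29548 to 5304, and then less, to 3097 CPM. *Apoa5* fell most, from 341 ± 85.96 CPM at 2 h to 24.2 ± 4.001 at 24 h and 0.168 ± 0.118 at 96 h. Its mean at 120 h was 0.724 CPM, with 2.76 in library 34 and at most 0.0689 in the other libraries. *Apoc1* and *Apoc3* went from 3323 and 2499.6 CPM to 61.7 and 74.8. *Mttp* had most of its fall within 8 h (423 ± 52.96 to 148 ± 11.4), held near that level to 72 h (141.1 ± 60.7), and was at 46.4 ± 21.5 at 120 h. *Apob* began at 715 ± 307 CPM and ended at 744 ± 174.

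From 2 to 120 h under the WT label, log2 fold changes by edgeR's quasi-likelihood test were -9.13 ± 0.71 for *Apoa5* (adjusted p = 1.3e-12), -7.14 ± 0.57 for *Apoa2*, -5.92 ± 0.38 for *Apoc1*, -5.50 ± 0.55 for *Apoa4*, -5.24 ± 0.51 for *Apoc3*, -4.22 ± 0.59 for *Apoa1*, -3.42 ± 0.23 for *Apoe* and -3.35 ± 0.25 for *Mttp*, with Benjamini-Hochberg adjusted p of at most 2.6e-07 for these 8 genes. That of *Apob* was -0.09 ± 0.43 (adjusted p = 0.87). Transcript length moved with the change over this span too. Other genes with transcripts of 8 kb or more, the class of *Apob*, had a median log2 fold change of 1.36. Those under 1.5 kb had -0.34. Under the PkmΔDRE label these medians were 1.53 and -0.50. The part of transcript length in the changes with time was not tested. A gene is called here at an adjusted p under 0.05 over all genes tested and a change of at least 1.5-fold. Under the WT label 8 genes were called from 2 to 24 h, 8 from 24 to 120 h and 9 from 2 to 120 h, where 45.8%, 35.6% and 57.9% of all genes tested were called. Of these, 7, 8 and 8 were lower, against 20%, 18.6% and 24.5% of all genes. The 1 called higher in the contrasts from 2 h was *Apoc2*, which had 1 pair in its 4 libraries at 2 h and 36 at 24 h (25.8% and 33.4% of all genes were called higher). Size factors from DESeq2 moved the genes' median by -0.13 from 2 to 24 h and by 0.11 from 24 to 120 h and turned the sign of none of the 8 falling genes.

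Under the PkmΔDRE label 5 genes were called from 2 to 24 h (33.2% of all genes tested; 15.2% lower), 7 from 24 to 120 h (23.4%; 14% lower) and 8 from 2 to 120 h (49.4%; 22.7% lower), all lower. Without the 2 libraries out of place, which enter that fit through the spread, 8 were called from 2 to 24 h. Among the 5, the calls of *Apoc1* (without any 1 of the 8 libraries of the 2 hours), *Apoa5* (without library 90 or 91) and *Apoa1* (without library 90) were lost when 1 library was left out. From 2 to 120 h, *Apoa5* changed by -11.81 ± 2.05, *Apoa2* by -9.08 ± 1.41, *Apoc3* by -7.04 ± 1.03, *Apoa4* by -6.93 ± 0.98, *Apoc1* by -6.41 ± 1.04, *Apoa1* by -5.97 ± 0.79, *Mttp* by -3.60 ± 0.40 and *Apoe* by -3.16 ± 0.63, and *Apob* by -0.19 ± 0.68 (adjusted p = 0.84). At 120 h *Apoa5* was close to the limit of counting, with 14 pairs in the 4 vehicle libraries under this label and 69 under the WT label, most of the latter from library 34. Over the same span the 6 hepatocyte markers were called lower under both labels, 3 of 5 cholangiocyte markers and 3 of 5 stellate and fibroblast markers were called higher, and 4 of 6 (WT label) and 5 of 6 (PkmΔDRE label) macrophage markers were called lower. Their part in the members' fall was not tested.

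Over the 36 group means (log2 CPM), *Apoa1*, *Apoa2*, *Apoa5*, *Apoc1* and *Apoc3* followed each other with Pearson correlations of 0.95 to 0.99. *Apoe* correlated with the other genes except *Apob* at 0.68 to 0.92 and *Mttp* at 0.68 to 0.88. *Apob* correlated with them at 0.10 to 0.25. These groups share the course of time in culture, so the coefficients are descriptions without a test. By the same measure over 8176 genes with a mean of at least 10 CPM, the 3 genes most like *Apoa1* were *H2-Q10*, *Serpina11* and *C4bp* (0.97, 0.97 and 0.96), those most like *Apoa2* were *C8g*, *Alas2* and *Hsd17b6*, those most like *Apoa5* were *Itih1*, *H2-Q10* and *Serpinc1*, those most like *Apoc1* were *Serpina1d*, *H2-Q10* and *Rarres2*, and those most like *Apoc3* were *H2-Q10*, *Pglyrp2* and *Ces3a* (all 0.99 or above after rounding). *Apoa4* was most like *Saa1*, *Orm1* and *Saa2* (0.97, 0.97 and 0.96), which encode acute-phase proteins. *Apoe* was most like *Serpina1b*, *Gcdh* and *Cela1* (0.99, 0.98 and 0.98), and *Mttp* like *Gjb2*, *Mettl7b* and *Dera* (0.96, 0.95 and 0.94). *Apob* had no gene as near, with *Lysmd3*, *Larp4* and *Jmjd1c* at 0.87, 0.85 and 0.84. For *Apoc2* the nearest were *F2rl1*, *Ints2* and *Mtmr4* (0.84, 0.83 and 0.83), from counts near 0.

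The main question of the design was the effect of TCDD against time-matched vehicle. Under the WT label the members moved at 8 h: 7 were called lower and *Apob* was called higher, 8 of the 9 genes that passed the filter on low counts (all but *Apoc2*), where 37.4% of all genes tested were called, 13.6% lower and 23.8% higher. The median log2 fold change of the 9 genes was -0.80, beside 0.00 over all genes.

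Of the high density lipoprotein proteins, *Apoa1* stood at 6629.5, 7267, 11424 and 11988 CPM in the 4 vehicle libraries at 8 h and at 3159, 4415, 5240.4 and 5881 in the 4 TCDD libraries, a log2 fold change of -1.03 ± 0.25, adjusted p = 0.0056. The groups did not overlap. *Apoa2* went from 4382, 4680.3, 5590.0 and 6090.1 CPM to 2698, 2963, 3003 and 3712 (-0.78 ± 0.17, adjusted p = 0.0034), again without overlap. Of the genes that adjust lipoprotein lipase, *Apoc3* went from 1536, 1679, 2415 and 2478 CPM to 894, 1139.5, 1399 and 1408 (-0.78 ± 0.21, adjusted p = 0.0092), and *Apoa5* from 102.9, 118.4, 138.6 and 146 to 59.4, 73.1, 77.8 and 87.03 (-0.80 ± 0.16, adjusted p = 0.0026). Neither gene's groups overlapped. *Apoc1* was at 1695, 2095, 2611 and 3054 CPM in vehicle and 1029, 1064, 1117 and 1741 in TCDD (-0.97 ± 0.22, adjusted p = 0.0044), where the highest TCDD library, library 45, reached into the vehicle range. *Apoe*, the remnant ligand, went from 14285, 15787, 21968 and 24694 to 9229, 9727, 11982 and 13072 CPM (-0.84 ± 0.22, adjusted p = 0.008), with no overlap. *Apoa4* had the largest fall, from 89.7, 124.5, 131.5 and 175 CPM to 24.7, 55.6, 55.7 and 68.7 (-1.38 ± 0.27, adjusted p = 0.0024), and its groups were apart as well.

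The assembly genes went the other way or did not pass. *Apob* was at 463, 482, 769.8 and 796 CPM in vehicle and 982, 1360.1, 1858 and 1999 in TCDD at 8 h (1.28 ± 0.24, adjusted p = 0.002), and every TCDD library exceeded every vehicle library. *Mttp* was at 148 ± 11.4 CPM in vehicle and 196 ± 47.9 in TCDD (0.37 ± 0.16, adjusted p = 0.08), with overlapping groups. *Apoc2* was not tested. Leaving out any 1 of the 8 libraries left 8 genes called. In 1 fit of the label's 72 libraries with 1 surrogate variable *Apob* was the 1 member called of 10, and it was lower, at -1.17 (adjusted p = 0.046).

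Measures of library quality differed with treatment at this hour. The share of uniquely mapped pairs that fell on no gene was 4.89 to 5.99% in the vehicle libraries and 8.36 to 21.9% in the TCDD libraries, highest in library 45, and 15401 to 17203 genes were detected in vehicle against 18337 to 20626 in TCDD. Neither range overlapped. With that share as a covariate 9 members were called, 7 lower and 2 higher. Because the share did not overlap between the treatments, this fit cannot reliably tell its part from that of TCDD. The part of library quality in these calls was not tested further. Under the PkmΔDRE label the share was 4.20 to 6.27% in vehicle and 6.05 to 6.55% in TCDD at 8 h.

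**Figure D2:**
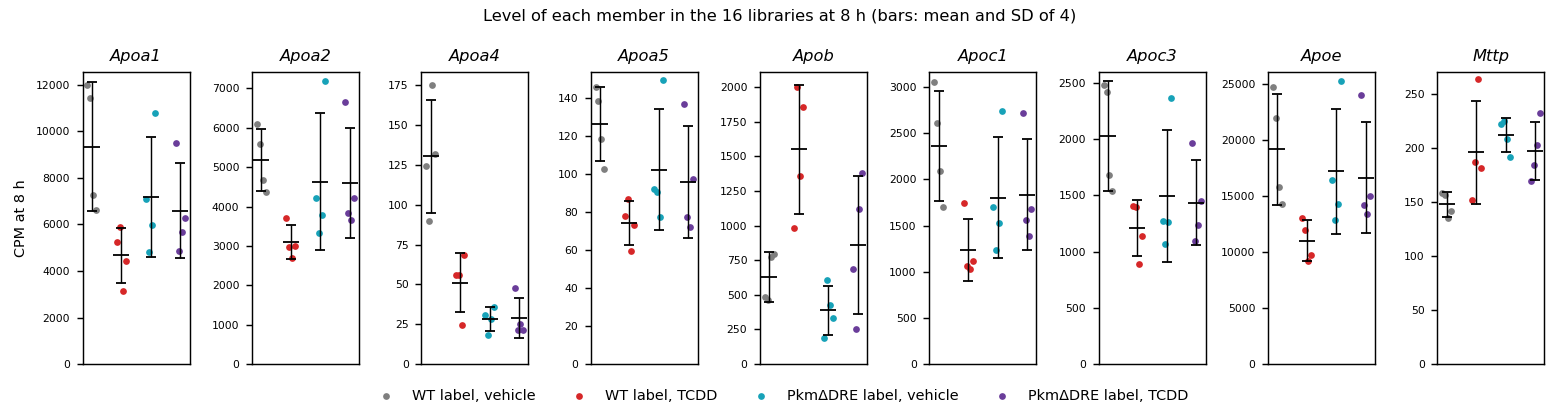
CPM of 9 genes in the 16 libraries at 8 h (linear axes from 0, 1 panel per gene); points are libraries and bars the mean and SD of 4. Under the WT label the TCDD points lie below the vehicle points for *Apoa1*, *Apoa2*, *Apoa4*, *Apoa5*, *Apoc3* and *Apoe* and above them for *Apob*, and under the PkmΔDRE label the groups overlap in each panel.

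The macrophage list moved with these genes at 8 h under the WT label. 4 of its 6 genes were called lower, and the summed list was 159 to 203 CPM in vehicle and 64.1 to 121.7 in TCDD, with none of the 6 at 0 in any of these libraries. The largest falls were those of *Cd5l* -1.24 ± 0.29, *Lyz2* -1.19 ± 0.30 and *Cd68* -0.96 ± 0.24. *Apoe* is made by both cell types, and the part of macrophages in its fall was not tested. Of the hepatocyte markers 2 were called lower and 1 higher (*Serpina1c* -0.84 ± 0.27, *Ttr* -0.68 ± 0.17 and *Cps1* 0.64 ± 0.14). No endothelial marker of 5 was called, none of the 3 cholangiocyte markers tested and not the 1 stellate marker tested. These counts stand beside 13.6% of all genes called lower and 23.8% called higher. Fold changes at this hour also moved with transcript length, with medians of -0.57 under 1.5 kb and 1.09 from 8 kb. The part of transcript length in the marker changes was not tested.

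Transcript length moved with the fold change at 8 h under the WT label. The other genes with transcripts under 1.5 kb had a median log2 fold change of -0.57 (1686 genes), those of 1.5 to 8 kb 0.07 and those of 8 kb or more 1.09 (649 genes, of which 63.5% were called higher). *Apob*, at 13934 bases, lay near the long genes, and most of the short apolipoprotein genes lay near the short ones. With the length trend of all genes removed, 3 genes stayed called, *Apoa4* at -1.20 (adjusted p = 0.0036), *Apoa5* at -0.81 (adjusted p = 0.0038) and *Apoa1* at -0.62 (adjusted p = 0.031). *Apob* was then at 0.22 (adjusted p = 0.34), and *Apoa2*, *Apoc1*, *Apoc3* and *Apoe* were no longer called. With the GC trend removed instead, *Apoa1*, *Apoa2*, *Apoa4* and *Apoc1* stayed called and *Apob* was at 0.54 (adjusted p = 0.053). The share of all counts on transcripts of 8 kb or more was 1.75% to 2.17% in the vehicle libraries and 2.17% to 3.94% in the TCDD libraries. Both trend removals were alternatives chosen after seeing the data, and the part of transcript length in these calls was not tested further.

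**Figure D3:**
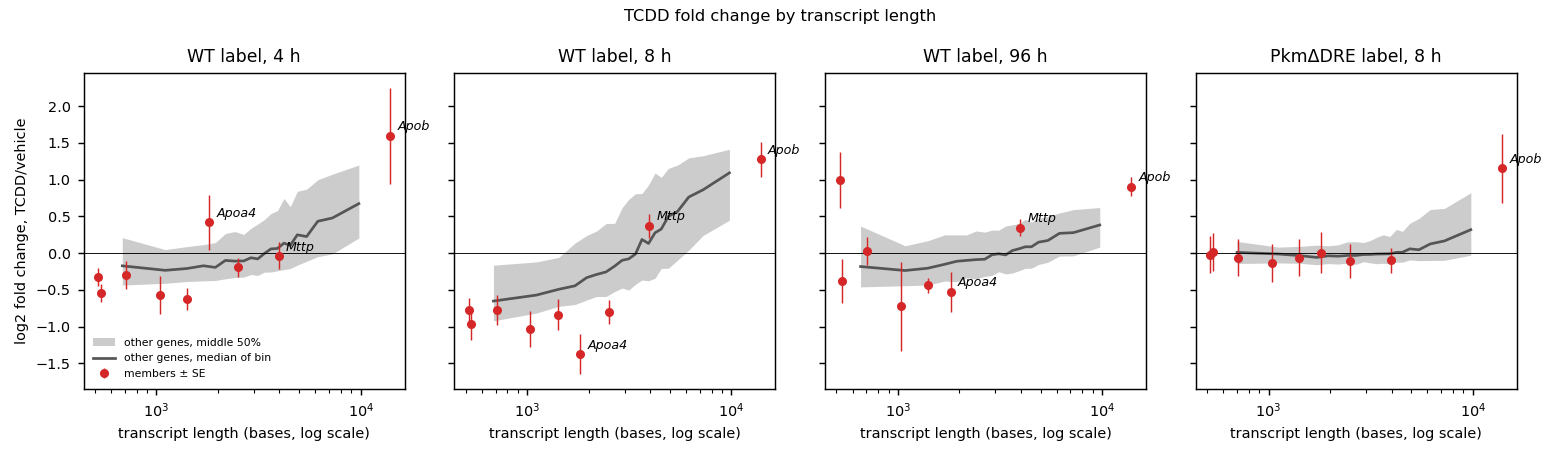
TCDD log2 fold change against transcript length (log scale) at 4 h, 8 h and 96 h under the WT label and at 8 h under the PkmΔDRE label; red points are the genes described here with their standard errors, the grey line the median of the other genes in bins of length and the band their interquartile range. At 8 h under the WT label the grey line climbs from below 0 to near the level of *Apob*.

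At 2 and 4 h *Apob* spread widely. At 2 h under the WT label its values were 482, 566, 649 and 1165 CPM in vehicle and 106.7, 1904, 1965 and 3392 in TCDD (1.36 ± 0.74, adjusted p = 1), and at 4 h 171.8, 501, 827 and 893 against 263, 1951, 2285 and 2836 (1.60 ± 0.66, adjusted p = 0.29). At both hours 3 TCDD libraries lay above all vehicle libraries and 1 did not. That 1 was library 40 at 2 h and library 44 at 4 h, whose *Cyp1a1* went against their treatment label. Libraries 40 and 44 also differed from the other TCDD libraries of their hours in quality. Their shares of uniquely mapped pairs on no gene were 3.699% and 4.555%, against 5.906 to 7.516% and 7.413 to 9.897%. Genes detected numbered 16391 and 17717, against 19320 to 19961 and 19715 to 21216. Each also had its group's lowest share of counts on transcripts of 8 kb or more. The parts of treatment, library quality and transcript length in these exceptions were not tested. Without library 40 the log2 fold change at 2 h was 1.76 (adjusted p = 0.053), and without library 44 at 4 h it was 1.95 (adjusted p = 0.07), and neither was called. At 4 h the groups of *Apoa2*, *Apoc1* and *Apoe* did not overlap, TCDD being the lower, with *Apoe* at -0.63 ± 0.14, adjusted p = 0.29 and *Apoc1* at -0.55 ± 0.12, adjusted p = 0.29. No gene of any kind was called at 2 or 4 h under the WT label (0% of all genes), where 166 and 2126 genes had an unadjusted p under 0.05, among them 0 and 4 of the members. DESeq2 called 0 and 43 genes, and *Apoe* at 4 h. Other genes of 8 kb or more had a median log2 fold change of 0.36 at 2 h and 0.68 at 4 h. For those under 1.5 kb the medians were 0.02 and -0.21.

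At the later hours under the WT label, *Apob* was called again at 96 h, where 15.1% of all genes were called, 10.1% higher. Its values were 471, 553, 642 and 646 CPM in vehicle and 899, 978, 1072 and 1215 in TCDD (0.91 ± 0.13, adjusted p = 0.00089), with no overlap. *Apoe* (-0.44 ± 0.10, adjusted p = 0.0073) and *Mttp* (0.35 ± 0.12, adjusted p = 0.042) passed the p threshold but not the fold, and *Apoa2* was at 1.00 ± 0.38, adjusted p = 0.079. With the length trend removed *Apob* was at 0.47 (adjusted p = 0.0033) and with the GC trend removed at 0.58 (adjusted p = 0.0035), both short of 1.5-fold. Here too the other genes differed by length, with medians of -0.22 under 1.5 kb and 0.38 from 8 kb. Without library 31, a vehicle library with high *Cyp1a1*, *Apoa2* was called as well (1.26), and without library 29 *Apoa4* was (-0.74). In the fit of 72 libraries with 1 surrogate variable *Apob* was at -0.16 (adjusted p = 0.97). Library 65, in TCDD, had 63.3% of its pairs in the first strand column (median of all libraries 50.6%). Its unmapped share was 11.4%, against 3.46% to 6.61% in the others of this label and hour. The call of *Apob* was kept without any 1 of the 8 libraries (0.80 to 0.98). The part of library quality in the changes at this hour was not tested further.

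Markers of other cells moved with TCDD at 96 h under the WT label as well. The macrophage list summed to 63.7 to 89.7 CPM in vehicle and 48.8 to 62.03 in TCDD, and the endothelial list to 70.6 to 80.8 and 43.9 to 62.3, in both cases without overlap. The hepatocyte list was at 6405 to 12120.2 and 11978 to 14028 CPM, the cholangiocyte list at 609 to 1331 and 372 to 781 and the stellate and fibroblast list at 48.6 to 129.02 and 50.1 to 159.6. Called lower were 2 of the 6 macrophage, 3 of the 5 endothelial, 2 of the 5 cholangiocyte and 2 of the 6 hepatocyte markers, 1 hepatocyte marker was called higher, and no stellate or fibroblast marker was called. No marker was at 0 in these libraries. Their part in the change of *Apob* was not tested. Nor was the part of transcript length in the marker changes, at an hour with medians of -0.22 under 1.5 kb and 0.38 from 8 kb.

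At 120 h under the WT label *Apoa1* was at 138.7, 211, 702 and 1816 CPM in vehicle and at 59.8, 61.2, 65.5 and 65.9 in TCDD. All TCDD libraries lay below all vehicle libraries, but the vehicle libraries differed among themselves more than 10-fold, and the log2 fold change of -3.52 ± 0.80, adjusted p = 0.08 was not called. *Apoc1* (-1.40 ± 0.39, adjusted p = 0.12) and *Apoe* (-0.62 ± 0.20, adjusted p = 0.17) were not called either. Library 34 held the highest vehicle value, and without it *Apoa1* (-2.46), *Apoc1* (-0.78) and *Mttp* (0.85) were called. Without library 35 *Apoa1* and *Apoe* were called (-3.87 and -0.79). DESeq2 called *Apoa1*, *Apoc1* and *Apoe* with all 8 libraries. The share of all genes called was 1.46%. At 12, 24, 48 and 72 h no member was called, where 0.0321%, 0.373%, 0.00763% and 0% of all genes were, and 0, 1, 1 and 0 members had an unadjusted p under 0.05. The nearest was *Apoa1* at 24 h (-0.64 ± 0.15, adjusted p = 0.14), which DESeq2 called, as it did no other member at these 4 hours.

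**Figure D4:**
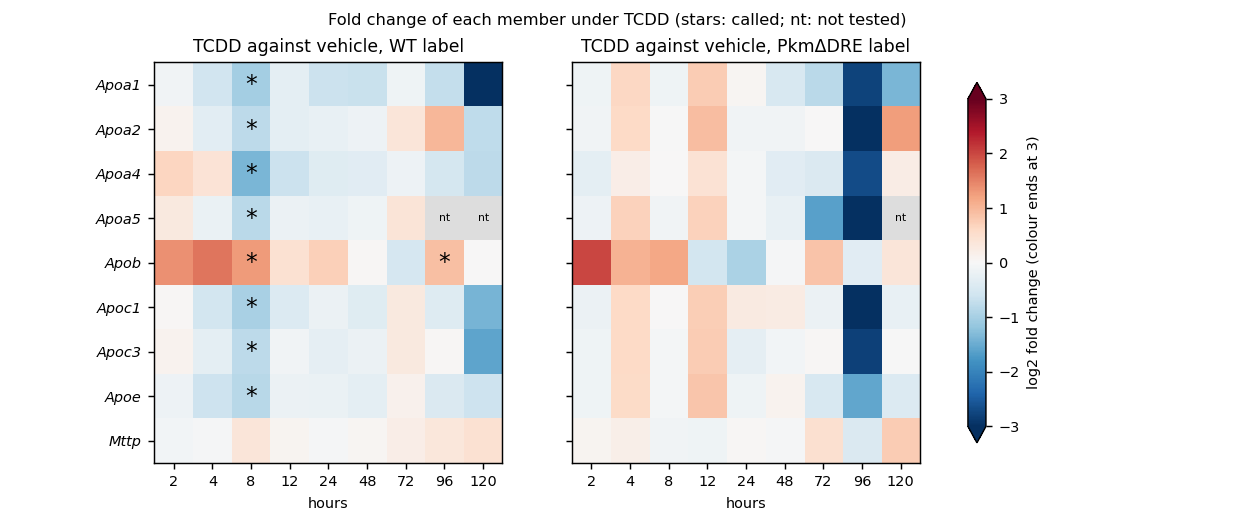
Log2 fold change of TCDD against vehicle for 9 genes (rows) at 9 hours (columns), WT label on the left and PkmΔDRE label on the right; colour runs from -3 (blue) to 3 (red), stars mark called genes and nt a gene not tested. The stars stand at 8 h and, for *Apob*, at 96 h under the WT label. Most of the depth of the blue column at 96 h under the PkmΔDRE label rests on the 96 h library out of place, without which *Apoa1* was at -0.99.

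Under the PkmΔDRE label no member was called by edgeR at any hour, where 0%, 0%, 0.106%, 0.024%, 0.016%, 0.404%, 1.13%, 0.0793% and 0.633% of all genes were called over the 9 hours in order. Members with an unadjusted p under 0.05 numbered 1, 0, 1, 3, 0, 0, 0, 6 and 2. *Apob* was the member at 2 h and at 8 h: at 2 h its values were 301, 337, 866 and 1088 CPM in vehicle and 928, 2688, 3120.2 and 3155 in TCDD (2.00 ± 0.51, adjusted p = 0.28), and at 8 h 188, 336, 424 and 608 and 254, 684, 1118 and 1381 (1.15 ± 0.47, adjusted p = 1). In each, 1 TCDD library lay inside the vehicle range. DESeq2 called *Apob* at 2 h, as did edgeR without library 74 (2.30, adjusted p = 0.031). At 2 h other genes of 8 kb or more had a median of 0.87 and those under 1.5 kb of -0.13; at 8 h these were 0.32 and -0.01. The apolipoprotein genes that fell at 8 h under the WT label had log2 fold changes between -0.13 (*Apoa1*) and 0.01 (*Apoc1*) at this hour, and each gene's groups overlapped.

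At 12 h under the PkmΔDRE label no member was called, with *Apoa2* at 0.92 ± 0.38, adjusted p = 0.51, *Apoe* at 0.82 ± 0.35, adjusted p = 0.51 and *Apoc1* at 0.75 ± 0.31, adjusted p = 0.51, and other genes under 1.5 kb had a median of 0.41. At 72 h *Apob* was at 0.85 ± 0.43, adjusted p = 0.52, and without library 97 *Apob* and *Apoe* were called (1.31 and -0.67). At 96 h the median log2 fold change of the members was -2.72, and without the 96 h library out of place it was -0.27. At 4 h it was 0.60, and 0.19 without the 4 h library out of place. Neither hour had a called member with or without them. Over all genes, 11 were called at 96 h with the library out of place and 321 without it. Without it *Apoa1* (-0.99 ± 0.28, adjusted p = 0.11) and *Apoc2* (-1.46 ± 0.61, from counts near 0) were the members with an unadjusted p under 0.05. At 120 h *Apoa1* was at 234 ± 43.7 CPM in vehicle and 93.01 ± 45.2 in TCDD, without overlap (-1.36 ± 0.32, adjusted p = 0.12), and *Apoa2* was at 1.27 ± 0.36, adjusted p = 0.25. DESeq2 called both, in these opposite directions.

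An interaction term tested whether the 2 labels differed in their response. No member was called at any of the 9 hours, and few genes were: 0.00715% of all genes at 48 h, 0.00695% at 72 h and 0% at each other hour. At 8 h, the hour of most calls under the WT label, the difference of the log2 fold changes (PkmΔDRE minus WT) was 1.27 ± 0.42, adjusted p = 0.29 for *Apoa4*, 0.86 ± 0.35, adjusted p = 0.29 for *Apoc1*, 0.77 ± 0.37, adjusted p = 0.32 for *Apoa1*, 0.65 ± 0.33, adjusted p = 0.33 for *Apoe*, 0.64 ± 0.31, adjusted p = 0.32 for *Apoa2* and -0.24 ± 0.57, adjusted p = 0.84 for *Apob*. 3 members and 2114 genes had an unadjusted p under 0.05 there, and DESeq2 called 3 genes, no member among them. The fall of 7 members under the WT label is therefore not shown to differ from their course under the PkmΔDRE label. At 96 h 6 members had an unadjusted p under 0.05 with a median difference of -2.09, and the median was -0.33 without the 96 h library out of place. *Apob* was called there without library 140 (-1.60). At hours other than 8 and 96 h at most 2 members had an unadjusted p under 0.05 with all libraries. At 4 h the median difference was 0.89, and 0.50 without the 4 h library out of place. Without that library *Apoe* (0.88 ± 0.26), *Apoc1* (0.76 ± 0.26), *Apoa1* (0.83 ± 0.36) and *Apoa2* (0.53 ± 0.24) had an unadjusted p under 0.05. *Apoa4*, *Apob* and *Mttp* were then negative, and no member was called.

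Between the labels without TCDD, *Apoa4* was the one member called. At 8 h its values were 18.2, 28.1, 30.9 and 35.6 CPM under the PkmΔDRE label and 89.7, 124.5, 131.5 and 175 under the WT label, and the groups were far apart (-2.20 ± 0.31, adjusted p = 0.01). It was the 1 gene called of 13333 tested at that hour (0.0075% in either direction and 0.0075% lower). At 12 h its values were 20.4, 21.7, 22.1 and 23.1 CPM and 60.8, 65.4, 119.2 and 197 (-2.34 ± 0.43, adjusted p = 0.015), where 1.74% of all genes were called and 1.19% lower. At 2 h they were 31.1, 37.1, 43.9 and 45.5 and 66.3, 71.8, 81.5 and 125.3, again without overlap (-1.17 ± 0.36, adjusted p = 0.98). The difference was negative at every hour but 96 h, with -1.47 after 4 h (-1.04 without the 4 h library out of place), -1.48 after 24 h, -0.78 after 48 h, -1.49 after 72 h and -2.56 after 120 h. At 96 h it was 1.36, and -0.45 without the library out of place. The libraries of the 9 hours share strain and may share animals, so these are not independent repeats. With the strand columns added up, which raises the *Apoa4* count about 21.9-fold over all libraries, the difference was -1.90 (adjusted p = 0.021) at 8 h and -2.10 (adjusted p = 0.031) at 12 h, both called. The call at 8 h was lost without library 11, 81, 82 or 83, and that at 12 h without library 14, 85, 87 or 88.

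**Figure D5:**
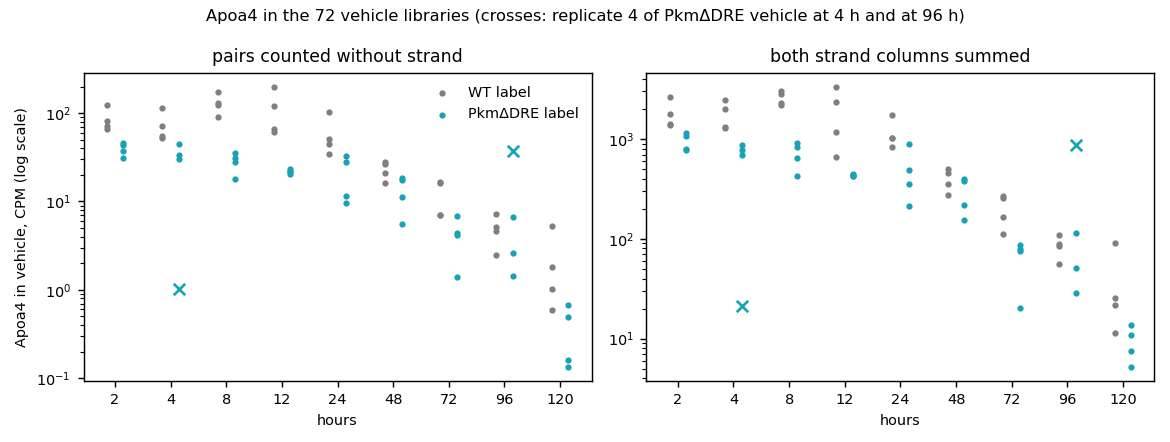
*Apoa4* in the 72 vehicle libraries by hour, in CPM on a log scale, from the count used here on the left and from the sum of the strand columns on the right; points are libraries, and crosses are replicate 4 of PkmΔDRE vehicle at 4 h and at 96 h. PkmΔDRE-labelled points in the left panel lie below WT-labelled points at 2, 4, 8, 12, 24 and 72 h.

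No other member was called between the labels in vehicle at any hour. Outside 8 and 12 h, 0% of all genes were called. Members with an unadjusted p under 0.05 numbered 2, 2, 2, 1, 2, 2, 3, 8 and 4 over the 9 hours, and DESeq2 called no member but *Apoa4* at 8 and 12 h. At 96 h the median difference of the members was 2.06 with the library out of place and 0.57 without it. Without it *Apoa2* (1.41), *Apoa5* (3.48), *Apoc1* (1.12), *Apoc3* (0.73) and *Mttp* (0.49) still had an unadjusted p under 0.05. The other members did not, and none was called. At 120 h *Apoa1* was at -1.63 ± 0.58, adjusted p = 0.76. *Mttp* was at 289 ± 26.3 CPM under the PkmΔDRE label and 423 ± 52.96 under the WT label at 2 h (-0.58 ± 0.21, adjusted p = 0.98). At 8 h it was at 212 ± 15.6 and 148 ± 11.4 (0.53 ± 0.17, adjusted p = 0.38). Neither difference passed. The *Mttp* groups did not overlap at 2, 4, 8 and 72 h. Without library 94, *Apoa1* and *Apoa2* were called at 48 h (0.91 and 1.09).

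The rest of the pathway was read from 5 lists. At 8 h under the WT label the other apolipoproteins were called 0 higher and 5 lower of 6 tested (median log2 fold change -0.76), led by *Apoc4* -1.25 ± 0.31, *Apom* -1.07 ± 0.22 and *Clu* -0.82 ± 0.19. Genes of assembly and secretion were called 3 higher and 4 lower of 14 tested (median -0.01). The highest were *Mia2* 1.43 ± 0.25 and *Mia3* 1.35 ± 0.24, whose products load large cargo at endoplasmic reticulum exit sites, and *A1cf* 1.26 ± 0.30, the cofactor of *Apob* mRNA editing. Lipases and factors of lipid transfer were called 2 higher and 3 lower of 10 tested (median -0.49), with *Angptl4* -0.92 ± 0.23, an inhibitor of lipoprotein lipase, and *Abca1* 0.82 ± 0.17, the lipid exporter to APOA1. Receptors were called 1 higher and 2 lower of 7 tested (median -0.58), with *Vldlr* 1.77 ± 0.30, the very low density lipoprotein receptor, *Sdc1* -0.75 ± 0.15 and *Scarb1* -0.71 ± 0.21, the high density lipoprotein receptor. Transcriptional regulators were called 1 higher and 3 lower of 9 tested (median -0.08), with *Nr1h3* -0.89 ± 0.20, *Creb3l3* -0.84 ± 0.15 and *Foxo1* 0.82 ± 0.17. All stand beside 37.4% of all genes called and a median of 0.00. They also stand beside the trend with transcript length at this hour. Under 1.5 kb the median was -0.57 and 33.6% were called lower. From 8 kb the median was 1.09 and 63.5% were called higher. The part of transcript length in the lists was not tested.

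At 96 h under the WT label, where 15.1% of all genes were called and 10.1% were called higher, genes of assembly and secretion were called 5 higher and 1 lower of 14 tested, led by *Ces1d* 1.73 ± 0.35, a lipid droplet carboxylesterase, *Mia2* 0.92 ± 0.15 and *Ces3a* -0.90 ± 0.25. Medians by transcript length at this hour were -0.22 under 1.5 kb and 0.38 from 8 kb. Lipases and factors of lipid transfer were called 3 higher and 1 lower of 9 tested, with *Lipc* 3.62 ± 0.22, the hepatic lipase. The other apolipoproteins were called 0 higher and 2 lower of 6 tested (*Clu* -0.88 ± 0.13 and *Apon* -0.69 ± 0.16), receptors 1 higher and 1 lower of 7 tested (*Vldlr* 1.49 ± 0.15), and regulators 1 higher and 0 lower of 10 tested (*Nr1h4* 0.72 ± 0.13, the bile acid receptor). *Vldlr* was called at further hours: 2.30 at 24 h and 1.31 at 120 h under the WT label and 2.77 at 48 h under the PkmΔDRE label. *Ces1d* was called at 120 h under the WT label (3.16) and at 72 h under the PkmΔDRE label (4.04), *Lipc* at 72 and 120 h under the PkmΔDRE label (2.90 and 3.76) and *Apom* at 120 h under the WT label (-1.57). No gene of the 5 lists was called in the other comparisons of TCDD with vehicle.

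Time in culture moved the same lists. From 2 to 120 h in vehicle under the WT label the other apolipoproteins were called 1 higher and 5 lower of 6 tested (median -4.20), with *Apon* -6.55 ± 0.40, *Apof* -4.89 ± 0.33 and *Apoc4* -4.45 ± 0.37 falling most. Genes of assembly and secretion were called 3 higher and 10 lower of 14 tested (median -1.94), with *Ces1d* -10.48 ± 1.38, *Ces3a* -9.07 ± 0.66 and *Aadac* -5.96 ± 0.30. Lipases and factors of lipid transfer were called 1 higher and 9 lower of 10 tested (median -3.14), with *Lipc* -7.04 ± 0.56, *Lcat* -5.56 ± 0.39 and *Lipg* -5.42 ± 0.92. Receptors were called 0 higher and 4 lower of 7 tested (median -0.73; *Scarb1* -3.37 ± 0.24 and *Sdc1* -2.0 ± 0.19) and regulators 2 higher and 6 lower of 10 tested (median -1.24; *Creb3l3* -4.39 ± 0.29, *Nr0b2* -2.13 ± 0.67 and *Ppargc1a* 1.96 ± 0.60). All stand beside 57.9% of all genes called, 24.5% lower and 33.4% higher, and a median of 0.21. Under the PkmΔDRE label, where 49.4% were called and 22.7% called lower, the counts were 1 higher and 5 lower of 6 tested, 2 higher and 10 lower of 14 tested, 1 higher and 8 lower of 10 tested, 1 higher and 3 lower of 7 tested and 1 higher and 6 lower of 10 tested in the same order.

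The within-group SD of log2 CPM was lowest for *Mttp* (0.39) and *Apoe* (0.50) and highest, among genes counted in every group, for *Apob* (0.97) and *Apoa2* (0.99). These SDs include the 2 libraries out of place. The median range over groups was 1.93-fold for *Apoa2*, below that of *Apoa1* (2.11-fold) and *Apoa4* (2.52-fold). For *Apoa2* the widest group was PkmΔDRE vehicle 4 h, where the highest library was 184 times the library out of place. For *Apob* it was WT TCDD 2 h, with a range of 31.8-fold, and the median range over groups was 3.24-fold, the widest of the 9 genes other than *Apoc2*.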

How the data were processed

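Processed files of the RNA-Seq libraries were used, each holding the authors' deposited counts of read pairs per gene: paired reads were checked with FastQC 0.11.3, trimmed with Trimmomatic 0.39 and aligned with STAR 2.7 to GRCm39, which counted uniquely mapped pairs on each gene. Pairs on 2 genes are left out of these counts. The unstranded column was used. Lines that name no gene held 16.8% to 48.0% of pairs (median 24.2%) and stayed out of library sizes and tests. Gene names, lengths and positions came from GENCODE M21 (GRCm38), whose coordinates may differ from those the counts were made on.

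Counts were scaled by TMM and tested with edgeR 4.0.16 (quasi-likelihood, robust) in R 4.3.3, with a count minimum of 10 (total 15) and Benjamini-Hochberg adjustment over all genes tested. Log2 fold changes are given ± SE, levels as CPM ± SD (n = 4). TCDD was compared with vehicle per label and hour (8 libraries), the label difference and the interaction per hour (16 libraries), and time in the 36 vehicle libraries of a label. The steps were tested on simulated data. Alternatives used DESeq2 1.42.0, sva 3.50.0, limma 3.58.1 (the posterior probability, after the study's own rule) and RLE scaling, and, chosen after seeing the data, summed strand columns, removal of length or GC trends, and fits without libraries that went against their labels. Members and lists were chosen with earlier results of these data known. All 10 genes are named in each comparison or counted, and of the other lists at most the 3 called genes with the largest change, some of which are not reported here. Plots were drawn with matplotlib 3.10.9. The labels and the protocol differ on the plate format, which is not used here.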

Additional observations from a re-analysis of the deposited data

Results flagged for a closer look

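In 34 of 324 sets of 4 libraries (9 genes in 36 groups, *Apoc2* left out), the highest or lowest library stood apart from the other 3 by Dixon's criterion at the 95% level. Chance gives this in about 1 of 20 sets where values are independent and normal. Here CPM were not log-transformed and the genes share libraries, so that rate is no reference for the number of sets. Values are in CPM. Replicate 4 of PkmΔDRE vehicle 96 h stood apart for *Apoa1* at 13617, *Apoa2* at 8751, *Apoa4* at 36.9, *Apoa5* at 285, *Apoc1* at 3611, *Apoc3* at 2749.6 and *Apoe* at 34389. Replicate 2 of WT vehicle 120 h stood apart for *Apoa2* at 152, *Apoa5* at 2.76, *Apoc1* at 125.05, *Apoc3* at 211 and *Mttp* at 78.5. The former is the 96 h library out of place, and the latter is library 34. The same held for replicate 1 of WT TCDD 96 h (*Apoa1* at 222 and *Apoc3* at 54.8), replicate 2 of WT TCDD 12 h (*Apoa2* at 3823 and *Apoc1* at 1685) and replicate 3 of WT vehicle 48 h (*Apoa2* at 796 and *Apoc1* at 469). Others were replicate 1 of PkmΔDRE TCDD 8 h (*Apoa4* at 47.9 and *Apoe* at 23999.8), replicate 4 of WT vehicle 72 h (*Apoa1* at 1329) and replicate 2 of PkmΔDRE vehicle 72 h (*Apoa5* at 13.2). Further sets were those of replicate 4 of PkmΔDRE TCDD 96 h (*Apob* at 1167), replicate 3 of WT TCDD 120 h (*Apob* at 363) and replicate 2 of WT TCDD 24 h (*Apob* at 1379.8). The list went on with replicate 1 of WT TCDD 48 h (*Apob* at 1654), replicate 1 of WT vehicle 12 h (*Apob* at 825) and replicate 1 of WT TCDD 8 h (*Apoc1* at 1741). Also apart were replicate 4 of PkmΔDRE vehicle 8 h (*Apoc3* at 2368), replicate 4 of WT TCDD 2 h (*Apoc3* at 3605) and replicate 2 of WT TCDD 4 h (*Apoe* at 20843). The remaining ones included replicate 4 of PkmΔDRE vehicle 24 h (*Mttp* at 105.7), replicate 1 of PkmΔDRE vehicle 72 h (*Mttp* at 58.3) and replicate 3 of WT vehicle 72 h (*Mttp* at 232).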

How the results depend on the processing

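The number of genes called kept within 1.5 times its value, except in the settings given here, which are counts of called genes among the 10. For TCDD at 8 h under the WT label (8 called), 1 fit of the label's 72 libraries gave 4, that fit with 1 surrogate variable 1, a posterior probability of at least 0.8 gave 1, and removing the GC or the length trend gave 4 or 3. At 96 h under that label (1 called), the fit of 72 libraries, the posterior probability and removal of the GC or length trend each gave 0, no fold threshold gave 3, and leaving out libraries whose *Cyp1a1* went against their label gave 2. At 120 h (0 called), the fit of 72 libraries, the same with a surrogate variable and DESeq2 gave 3 each, and the posterior probability gave 1. DESeq2 gave 1 at 4 and 24 h under the WT label, and 1 at 2 h and 2 at 120 h under the PkmΔDRE label, from 0. With no filter on low counts 1 was called at 24 h under the WT label, at 2, 8 and 72 h under the PkmΔDRE label and in the interaction at 8 h, from 0. At 96 h under the PkmΔDRE label (0 called), the fit of 72 libraries gave 6, and 7 with a surrogate variable. 1 fit of all libraries gave 3 for the interaction at 96 h (from 0), 0 for the label difference at 8 h (from 1) and 7 for that at 96 h (from 0). Without the 2 libraries out of place, the counts of 6, 7, 3 and 7 at 96 h were each 0, as were those of the same fits at 4 h with and without the pair. For 24 h against 2 h under the PkmΔDRE label (5 called), no filter gave 3, and leaving out the 2 libraries out of place gave 8. *Apob* turned in direction in 2 cases, both in the fit of 72 libraries with a surrogate variable under the WT label: -1.17 at 8 h, where it was the 1 member called, and -0.16 at 96 h. The cause of these changes was not tested. Leaving out 1 library at a time gave 8 to 8 at 8 h, 1 to 2 at 96 h and 0 to 3 at 120 h under the WT label, 0 to 1 at 2 h and 0 to 2 at 72 h under the PkmΔDRE label, 0 to 1 for the label difference at 8 h and at 12 h, 0 to 2 at 48 h, 0 to 1 for the interaction at 96 h, 7 to 9 and 8 to 9 for 24 and 120 h against 2 h under the WT label, and 2 to 5 for 24 h against 2 h under the PkmΔDRE label. Scaling by the raw sum of counts moved 71 of 360 group levels by over 1 SD. No paired analysis was possible because the labels give no replicate number or isolation, and the replicate numbers used here only name libraries. The overlap with *Gm44805* limits *Apoc2* at every hour, and *Apoa5* held few counts from 96 h on, save in the library out of place.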
